A study of Mus musculus with 2 samples.

Results

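The genes described here are 40 mouse genes known to be imprinted, coding and noncoding. The choice was by symbol and by no rule on level, but was made with earlier results of these data known. Of the 40, 39 had a row in the gene tables and are described. Peg13 was not analysed here. They were measured in 2 total RNA libraries of the embryonic facial prominence, the tissue that forms the face, from healthy B6NCrl embryos of both sexes at embryonic day 12.5. Replicate 1 was a pool of 120 embryos and replicate 2 a pool of 88. No allele, transgene or agent was listed for either pool, both belong to 1 group, and no condition is compared. Summed expected counts, the estimated reads assigned to genes, were 27890681 in replicate 1 and 39969716 in replicate 2.

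An imprinted gene is transcribed mainly from the chromosome inherited from 1 parent. Methylation set in the egg or sperm marks a control region, and the embryo keeps that mark through early development. Many paternally expressed genes promote growth of the embryo, and several maternally expressed genes restrain it. The embryos were of a single inbred strain, so reads from the maternal and paternal chromosomes look alike. Parental origin is therefore background knowledge here and was not measured. By that knowledge 22 of the 40 genes are paternally expressed and 11 are maternally expressed. In the other 7 the imprint depends on the isoform or the tissue.

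Mesenchyme, epithelium and cartilage markers were all above 10 TPM on average (TPM, transcripts scaled to a common total, is a level per length). Msx1, a homeobox gene of facial mesenchyme, had 336 TPM in replicate 1 and 325 TPM in replicate 2. The pools also held RNA of neurons (4 of 4 markers at 1 TPM or more in both libraries), muscle (3 of 3) and eye (3 of 3). Pituitary markers reached 1 TPM in both libraries (4 of 4), but only 1 had a mean of 10 TPM or more. That 1 was Pitx1, a gene also expressed in the jaw and mouth. Liver markers were low, with 2 of 3 at 1 TPM in both libraries and none at 10 TPM. The summed level of 5 trophoblast markers was 0.25 TPM (replicate 1) and 0.26 TPM (replicate 2). Among them, Tpbpa, Prl3d1 and Psg17 were at 0 counts in both libraries. In whole tissue, fewer expressing cells and less RNA per cell cannot be told apart.

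Several imprinted genes have more than 1 start site, and the parental mark often lies at only 1 of them. Which start carries the mark was not measured here, and neither a high share of TPM nor a motif shows it. The pairs of promoter sequences below come from genes with 1 group of nearby starts that held nearly all of the TPM. The pairs were also shown because the promoters of each gene differ in a motif. They were picked with the motif known. Each runs 250 bases before to 50 bases after a start, on the strand of the gene, from RefSeq on GRCm38.p6. Capitals mark TGCCGC, or its reverse complement GCGGCA, the letters that the zinc finger protein ZFP57 binds when they are methylated.
Mest, start at 30738050 (chr6:30737800-30738099, plus strand): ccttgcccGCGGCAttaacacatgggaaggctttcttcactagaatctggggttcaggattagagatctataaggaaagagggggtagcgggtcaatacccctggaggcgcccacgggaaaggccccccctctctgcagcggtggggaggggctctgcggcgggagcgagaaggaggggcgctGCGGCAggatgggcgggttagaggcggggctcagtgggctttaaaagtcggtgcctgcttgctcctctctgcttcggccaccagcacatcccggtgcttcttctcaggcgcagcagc
Mest, start at 30733506 (chr6:30733256-30733555, plus strand): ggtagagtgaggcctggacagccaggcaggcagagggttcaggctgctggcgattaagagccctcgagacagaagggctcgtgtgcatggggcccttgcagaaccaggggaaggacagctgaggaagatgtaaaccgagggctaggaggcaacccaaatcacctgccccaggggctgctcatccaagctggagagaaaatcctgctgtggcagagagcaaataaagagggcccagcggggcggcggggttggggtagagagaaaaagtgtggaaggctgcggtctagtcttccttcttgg
Grb10, start at 12037420 (chr11:12037371-12037670, minus strand): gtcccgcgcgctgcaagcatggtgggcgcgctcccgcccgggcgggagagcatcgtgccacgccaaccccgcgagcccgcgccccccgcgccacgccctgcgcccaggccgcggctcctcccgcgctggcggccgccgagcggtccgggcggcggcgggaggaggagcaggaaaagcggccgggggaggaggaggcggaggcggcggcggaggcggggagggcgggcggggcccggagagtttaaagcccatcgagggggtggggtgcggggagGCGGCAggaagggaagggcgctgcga
Grb10, start at 12027971 (chr11:12027922-12028221, minus strand): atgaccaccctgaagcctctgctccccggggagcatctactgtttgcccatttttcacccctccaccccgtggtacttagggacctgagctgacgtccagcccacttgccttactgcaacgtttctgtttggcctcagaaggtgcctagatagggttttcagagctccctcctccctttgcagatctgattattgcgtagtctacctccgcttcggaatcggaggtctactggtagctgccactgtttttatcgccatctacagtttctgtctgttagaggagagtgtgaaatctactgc
Snrpn, start at 60005199 (chr7:60005150-60005449, minus strand): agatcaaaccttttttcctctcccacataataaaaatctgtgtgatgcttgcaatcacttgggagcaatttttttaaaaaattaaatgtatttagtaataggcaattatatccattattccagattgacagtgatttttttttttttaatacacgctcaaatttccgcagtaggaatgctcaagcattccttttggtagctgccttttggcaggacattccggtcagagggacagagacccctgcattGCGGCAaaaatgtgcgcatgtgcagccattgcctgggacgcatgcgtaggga
Snrpn, start at 60140225 (chr7:60140176-60140475, minus strand): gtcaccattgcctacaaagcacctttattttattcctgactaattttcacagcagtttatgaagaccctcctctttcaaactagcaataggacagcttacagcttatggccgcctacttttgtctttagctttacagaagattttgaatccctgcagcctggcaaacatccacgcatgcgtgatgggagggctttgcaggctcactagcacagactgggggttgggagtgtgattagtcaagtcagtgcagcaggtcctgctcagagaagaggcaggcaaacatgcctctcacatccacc

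The first sequence of each pair belongs to the start group whose annotated models held most of the TPM. A group joins starts lying within 1500 bases of a neighbour. The main group held 98.1 ± 0.03% of the TPM of Mest, 96.1 ± 0.88% of that of Grb10 and 98.4 ± 1.29% of that of Snrpn (SD, n = 2). The group of the second sequence held 0.08 ± 0.01% for Mest, 3.19 ± 0.88% for Grb10 and 1.61 ± 1.29% for Snrpn. The Mest model that starts at 30733506 itself, Mest-210, had 0 counts in both libraries. The Grb10 model that starts at 12027971, Grb10-203, held 2.15%. The first sequences hold the motif 2 times in Mest, 1 time in Grb10 and 1 time in Snrpn, and the second hold none. Meg3 showed the same layout by group. It had 1 motif at a start in the group carrying 90.3% of its TPM. It had none at a start in the group carrying 8.41%, where the model at that start, Meg3-209, held 1.87%. Igf2 did not: its only motif lay at a start whose group carried 3.03% of its TPM. Gnas and Slc38a4 also had 1 dominant start group, at 94.8% and 98.4% of their TPM. They held the motif at none of their promoters, the main one included. Asb4 also held it at neither promoter, with 86.6% of its TPM in 1 group. Commd1 held 1 motif at the start whose group carried 75.8% of its TPM and none at its other promoter.

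RefSeq promoters were found for 33 of the 40 genes. In 11 of these 33 (33.3%) at least 1 promoter held TGCCGC on either strand, against 13.1% of the 27025 genes in the whole table. By parental origin these were 7 of 17 paternally expressed, 2 of 9 maternally expressed and 2 of 7 genes with isoform- or tissue-dependent imprinting. Counted as promoters, 12 of 50 held it (24%), against 11.6% of 32851. The 50 promoters were also richer in CpG, with a median of 13.5 CpG per 300 bases against 7 over all promoters. A match describes the letters only, and these data say nothing about binding or methylation there.

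Some imprinted RNAs also carry microRNAs, small RNAs that pair with messenger RNAs through a seed at bases 2 to 8. On the strand of a member, RefSeq places 23 hairpins in 8 of the genes, 14 of them in Mirg. The mature sequences below lie within genes whose RNA was measured, with the seed in capitals. The level of a host gene is not the level of RNA that spans a hairpin. In Rian, only models of the first start group, with 1.55% of its TPM, start before the miR-370 hairpin. Mirg-207 and Mirg-201, with 34.3% and 34.1% of the Mirg TPM, do not span the miR-410 hairpin. The last 2 sequences listed, both from Mirg, share a seed, the only one shared among the 44 mature sequences.
mmu-miR-675-5p, in H19: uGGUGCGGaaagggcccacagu
mmu-miR-675-3p, in H19: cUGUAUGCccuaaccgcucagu
mmu-miR-335-5p, in Mest: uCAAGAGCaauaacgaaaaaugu
mmu-miR-370-3p, in Rian: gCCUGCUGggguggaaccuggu
mmu-miR-410-3p, in Mirg: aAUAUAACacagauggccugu
mmu-miR-453, in Mirg: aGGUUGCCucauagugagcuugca
mmu-miR-496a-5p, in Mirg: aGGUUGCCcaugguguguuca

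The hosts ranged widely in level, and the tables could hold almost no value for the small RNAs themselves. Usp29, the lowest host gene, had a mean of 0.58 TPM, and Mirg, with most of the hairpins, had 19.5 TPM. The only measured Usp29 model starts at 6961160, downstream of its hairpin, so its level is not that of RNA holding the hairpin. H19 had 402 TPM in replicate 1 and 374 TPM in replicate 2, and Mest had 1031 TPM and 1014 TPM. Of 44 microRNA and small nucleolar RNA genes overlapping a member, 40 had an effective length of 0 in replicate 1, so no reads could be assigned to them there and their zeros carry no information. RNA above 200 nucleotides was kept, per the labels.

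As a group the imprinted genes were well expressed. In both libraries 36 of the 39 reached 1 TPM, where 34.9% of all 43346 mouse genes did. A mean of 10 TPM or more was reached by 28 of the 39, where 22% of all genes did. The background share at 1 TPM was 61.8% over protein-coding genes, so it depends on which genes are counted. A mean of 10 TPM or more was reached by 9111 of 21474 protein-coding genes. Of the 33 protein-coding members, 30 reached 1 TPM in both libraries and 23 had a mean of 10 TPM or more. Together the 39 genes held 0.980% of all TPM in replicate 1 and 0.921% in replicate 2. The 3 genes with a mean under 1 TPM were Slc22a18, Usp29 and Ascl2.

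Neither parental class stood high or low throughout. The median was 43.1 ± 1.68 TPM over 21 paternally expressed genes and 31.9 ± 0.91 TPM over 11 maternally expressed genes (SD of the library medians, n = 2). Their levels ran over nearly the same range, with means of 0.58 to 1801 TPM in the paternally expressed genes and 0.33 to 1059 TPM in the maternally expressed genes. The 7 genes with isoform- or tissue-dependent imprinting had the highest median, 107 ± 1.36 TPM, and ranged from 25.5 to 1634 TPM. All 7 reached 1 TPM in both libraries, as did 20 of the 21 paternally and 9 of the 11 maternally expressed genes.

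**Figure D1:**
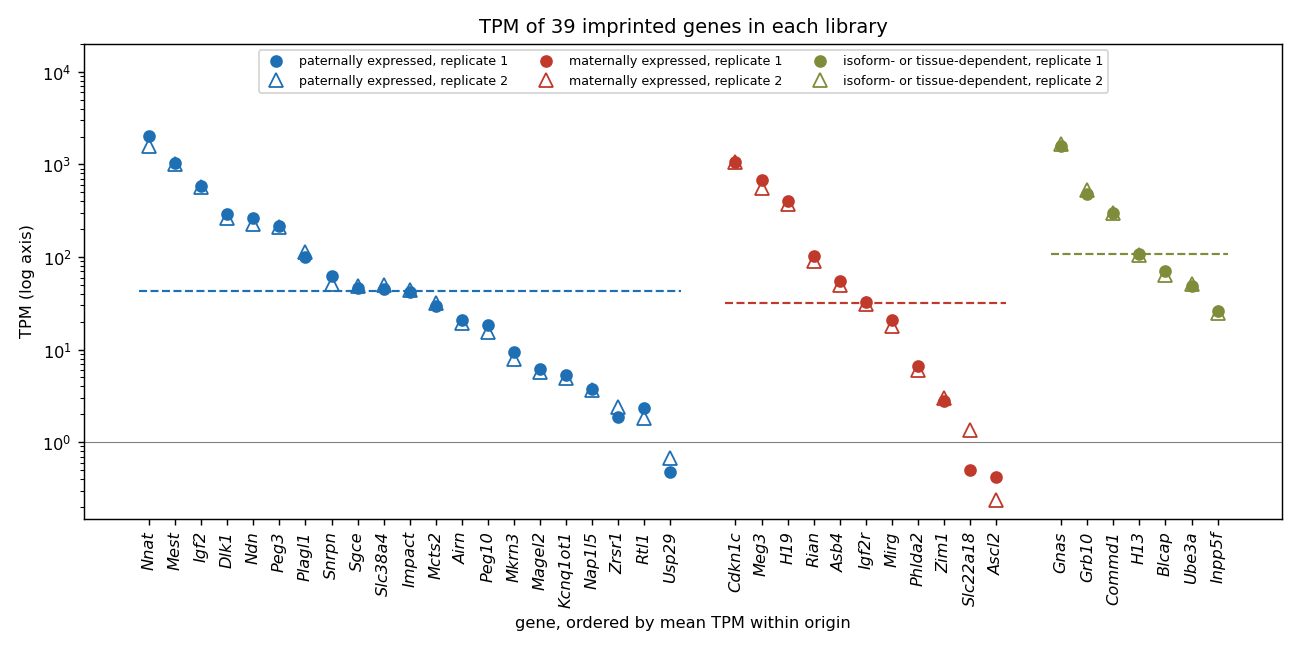
TPM (log axis) of each of the 39 genes in replicate 1 (filled circles) and replicate 2 (open triangles), grouped by known parental origin and ordered by mean; dashed lines are class medians (43.1, 31.9 and 107 TPM) and the grey line is 1 TPM. Each class spans a wide range, and the paternally and maternally expressed genes overlap.

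By mean TPM the most abundant member was Nnat (chromosome 2, 157560078 to 157562522, GRCm38), whose protein neuronatin is a small membrane proteolipid of neural and endocrine cells. Nnat had 2026 TPM in replicate 1 and 1575 TPM in replicate 2, rank 39 among all mouse genes by mean TPM. Gnas, which encodes the stimulatory G protein alpha subunit, had 1590 TPM and 1677 TPM and ranked 45. Cdkn1c and Mest followed at ranks 84 and 86. The 2 libraries kept these 4 genes in the same places, except that Gnas lay above Nnat in replicate 2.

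At the Igf2-H19 locus both parental products were abundant and close in level. Igf2, a paternally expressed fetal growth factor, had 592 TPM in replicate 1 and 572 TPM in replicate 2. H19, a maternally expressed long noncoding RNA that shares a control region with Igf2, had 402 TPM and 374 TPM. The log2 ratio of Igf2 over H19 was 0.56 in replicate 1 and 0.61 in replicate 2, short of the limit of 1 (a 2-fold difference in TPM, in the same direction in both libraries) used to call a ratio. In each library Igf2 was the higher.

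Igf2r, the maternally expressed receptor that clears IGF2, stood far lower. It had 32.5 TPM in replicate 1 and 31.2 TPM in replicate 2. Airn, the paternally expressed noncoding RNA that starts inside Igf2r on the other strand and silences it, had 20.97 TPM and 19.6 TPM. Airn over Igf2r had a log2 ratio of -0.65 ± 0.03 (SD, n = 2), which was not called. Airn held only 295 counts in replicate 1 and 385 counts in replicate 2, and its annotated models average 904 bases. Counts not divided by length put the ratio at -4.04, past the limit. The libraries' strand is not stated in the sources used here, so reads of Airn and of the Igf2r introns it crosses cannot be told apart. The same holds for Nnat and Blcap, Nespas and Gnas, Snhg14 and Ube3a, Zrsr1 and Commd1, and Nap1l5 and Herc3 where they overlap. Further cases include Kcnq1ot1 and Kcnq1, Mest and Copg2, Igf2 and Igf2os, and Rtl1 and any RNA of the microRNA genes opposite it.

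The Dlk1-Meg3 locus was led by its maternally expressed noncoding RNA. Meg3 had 679 TPM in replicate 1 and 557 TPM in replicate 2. Dlk1, the paternally expressed membrane protein with EGF repeats, had 288 TPM and 263 TPM. The log2 ratio of Dlk1 over Meg3 was -1.24 in replicate 1 and -1.08 in replicate 2 and was called. Rian, which carries small nucleolar RNAs, and Mirg, which carries microRNAs, lie downstream of Meg3 on the same strand. Rian had 102.6 TPM in replicate 1 and 91.4 TPM in replicate 2, and Mirg had 21.1 TPM and 17.9 TPM. Levels thus stepped down along the maternal RNAs in their order on the chromosome, with log2 ratios to Meg3 of -2.67 ± 0.08 for Rian and -4.99 ± 0.03 for Mirg. Rtl1, a paternally expressed gene derived from a retrotransposon and needed in the placenta, had 2.36 TPM in replicate 1 and 1.84 TPM in replicate 2. Its log2 ratio to Meg3 was -8.21 ± 0.05.

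At the Kcnq1ot1 locus 1 gene held nearly all the RNA per length. Cdkn1c, the maternally expressed cyclin-dependent kinase inhibitor p57 that restrains growth (chromosome 7, 143458339 to 143461050, GRCm38), had 1054 TPM in replicate 1 and 1064 TPM in replicate 2. The other maternally expressed genes of the locus were low. Phlda2, which restrains placental growth, had 6.70 TPM in replicate 1 and 6.01 TPM in replicate 2. Ascl2, a transcription factor of trophoblast, had 0.42 TPM and 0.24 TPM from 11 and 9 counts. Slc22a18, an organic cation transporter family member, had 0.50 TPM and 1.34 TPM from 12 and 39 counts. Log2 ratios to Cdkn1c were -7.38 ± 0.12 for Phlda2, -10.34 ± 1.00 for Slc22a18 and -11.70 ± 0.58 for Ascl2.

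Kcnq1ot1, the paternally expressed noncoding RNA that silences those neighbours, had a low level per length and many reads. It had 5.35 TPM in replicate 1 and 4.94 TPM in replicate 2. Its annotated model is 84395 bases long, and 7883 and 10310 counts fell on it. By mean TPM it ranked 11456 among mouse genes, and by mean CPM (counts scaled to a common library total, not divided by length) it ranked 536. The log2 ratio of Kcnq1ot1 over Cdkn1c was -7.69 ± 0.09 in TPM and -2.14 in counts not divided by length, called on both scales.

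**Figure D2:**
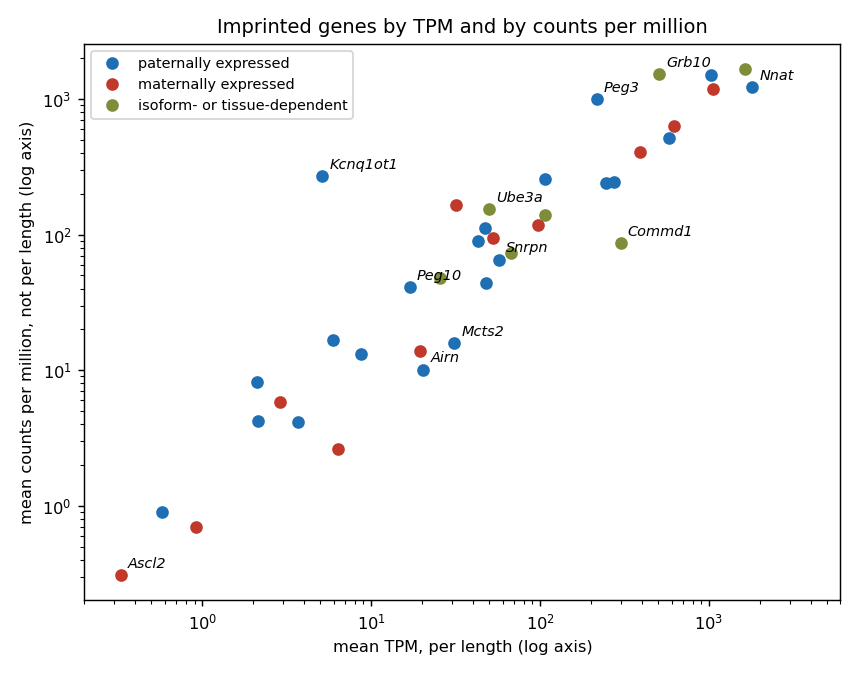
Mean TPM (horizontal, log axis) against mean CPM, not divided by length (vertical, log axis) for the 39 genes, means of 2 libraries, coloured by known parental origin. Kcnq1ot1 (5.15 TPM, 270 CPM) stands well above the other genes of its TPM, and Commd1 (299.5 TPM, 86.3 CPM) below.

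The Peg3 locus had a single abundant gene. Peg3, a paternally expressed zinc finger gene, had 218 TPM in replicate 1 and 213 TPM in replicate 2. Usp29, a paternally expressed deubiquitinase gene on the other strand, had 0.48 TPM and 0.67 TPM. Its only measured model starts at 6961160, far from the RefSeq start at 6730583 beside Peg3. No measured model covers that start, so which start the reads came from cannot be told. Zim1, a maternally expressed zinc finger gene, had 2.78 TPM and 2.99 TPM. The log2 ratio to Peg3 was -8.57 ± 0.36 for Usp29 and -6.23 ± 0.10 for Zim1.

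At the Peg10 locus Peg10 itself was the lowest of 3 genes. Peg10, a paternally expressed retrotransposon-derived gene known from placenta, had 18.5 TPM in replicate 1 and 15.4 TPM in replicate 2. Sgce, the paternally expressed epsilon-sarcoglycan gene starting beside it on the other strand, had 46.4 TPM and 48.9 TPM. Asb4, maternally expressed, had 55.2 TPM and 49.6 TPM. Sgce over Peg10 had a log2 ratio of 1.501 ± 0.24 and Asb4 over Peg10 one of 1.64 ± 0.08, both called. In counts not divided by length the ratio of Sgce over Peg10 was 0.10, inside the limit.

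In the Snrpn-Ube3a region, known in people for Prader-Willi and Angelman syndromes, Ndn led. Ndn, a paternally expressed member of the MAGE protein family (chromosome 7, 62346569 to 62350262), had 266 TPM in replicate 1 and 228 TPM in replicate 2. Its paternally expressed neighbours were much lower, with Magel2 at 6.13 TPM and 5.69 TPM and the ring finger gene Mkrn3 at 9.38 TPM and 7.96 TPM. Log2 ratios to Ndn were -5.38 ± 0.08 for Magel2 and -4.83 ± 0.01 for Mkrn3. Snrpn, which encodes a spliceosomal protein, had 62.9 TPM in replicate 1 and 51.3 TPM in replicate 2. Ube3a, a ubiquitin ligase gene imprinted in neurons, had 48.5 TPM and 50.9 TPM. Ube3a over Snrpn had a log2 ratio of -0.19 ± 0.26, not called, and in counts not divided by length the ratio had the other sign, 1.251. Snhg14, the noncoding RNA on the strand opposite Ube3a that silences it in neurons, had 13.4 TPM in replicate 1 and 12.5 TPM in replicate 2.

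Several paternally expressed members are short genes lying inside a host gene. Nnat lies in Blcap, whose name comes from bladder cancer, and exceeded it widely, since Blcap had 70.2 TPM in replicate 1 and 64.2 TPM in replicate 2. The log2 ratio of Nnat over Blcap was 4.73 ± 0.17. Mcts2, a retrogene, lies in H13, the signal peptide peptidase gene, and was the lower of that pair. Mcts2 had 30.0 TPM in replicate 1 and 31.9 TPM in replicate 2, and H13 had 108 TPM and 106 TPM, a log2 ratio of -1.80 ± 0.08. Zrsr1, a splicing factor-like retrogene, lies in Commd1, a gene of copper handling, and was lower by far. Zrsr1 had 1.85 TPM and 2.41 TPM, Commd1 had 297 TPM and 302 TPM, and the log2 ratio was -7.15 ± 0.25. Nap1l5, which lies in Herc3, had 3.80 TPM and 3.62 TPM, and Herc3 had 5.77 TPM and 7.79 TPM. A small gene inside a host was thus above its host at 1 of these 4 places.

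Over the 20 ratios, 17 were called, 3 with the first gene higher (Nnat over Blcap, Sgce over Peg10, Asb4 over Peg10) and 14 with it lower. Both libraries had the same sign for all 20. No p-value was computed for these ratios.

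**Figure D3:**
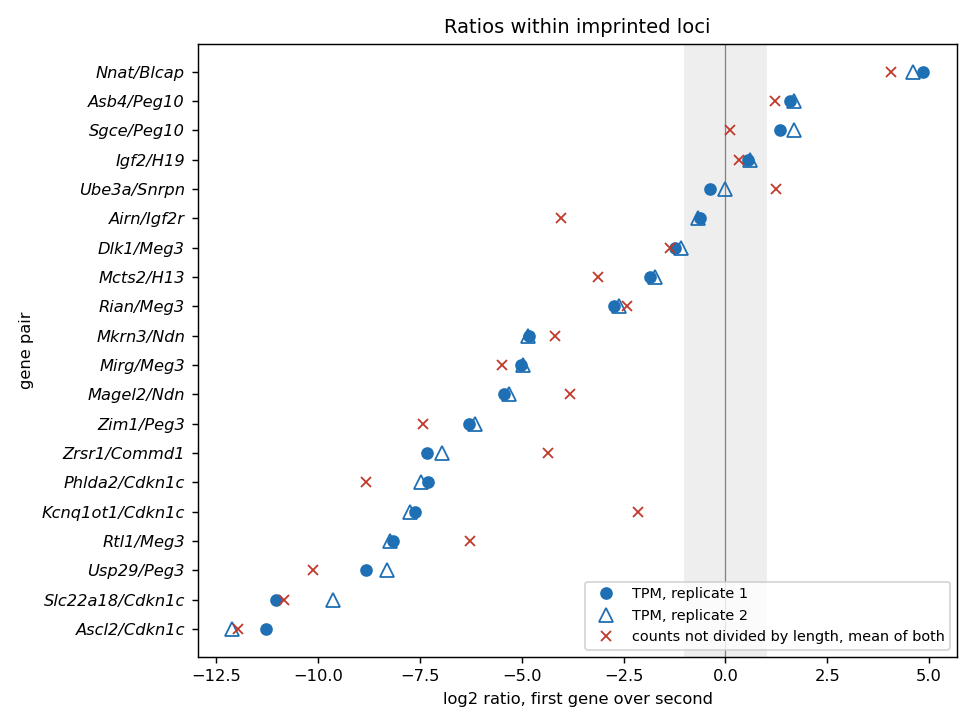
Log2 ratio of the first gene over the second (horizontal) for 20 pairs within imprinted loci, in TPM for replicate 1 (circles) and replicate 2 (triangles) and in counts not divided by length (crosses, mean of both); the grey band lies within the limit of 1. Circles and triangles sit close together for most pairs, while the crosses of Kcnq1ot1, Airn and Zrsr1 lie furthest from them.

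The remaining members stand alone or in loci not paired here. Mest, an enzyme-like gene of mesoderm, had 1031 TPM in replicate 1 and 1014 TPM in replicate 2. Grb10, an adaptor protein that dampens insulin and IGF signalling, had 482 TPM and 525 TPM. Plagl1, a growth-related zinc finger gene, had 100.3 TPM and 113 TPM. Slc38a4, an amino acid transporter gene, had 45.0 TPM and 49.4 TPM. Impact, a regulator of translation under amino acid shortage, had 41.9 TPM and 44.3 TPM. Inpp5f, an inositol phosphatase gene, had 26.3 TPM and 24.7 TPM. All 6 were above 20 TPM in both libraries.

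The start of a transcript bears on which version of an imprinted gene was made, because origin can differ between starts. Start sites were not measured here. The starts are those of annotated models, and reads shared between models were divided among them by estimate. Transcript starts of a gene were joined into a group where neighbours lay within 1500 bases. Gnas has starts with different imprints. The Nesp starts are maternally expressed, the XL and exon 1A starts paternally expressed, and the most downstream of these, of the G protein subunit itself, is used from both chromosomes in most tissues. The group of that start (174330006 to 174330287 on chromosome 2) held 1508 TPM in replicate 1 and 1589 TPM in replicate 2. That was 94.8% of Gnas in each. The groups starting further downstream, at 174341704 and 174344650, held 2.31 TPM and 8.59 TPM in replicate 1. In replicate 2 these held 2.30 TPM and 8.75 TPM. The Nesp group held 30.6 TPM and 38.5 TPM, the XL start 8.31 TPM and 11.9 TPM, and the exon 1A group 32.6 TPM and 26.6 TPM. Models of all 3 imprinted starts thus had reads assigned to them, at a combined share under 5% of the gene. Gnas-208, a transcript of the G protein subunit, was the leading isoform at 79.7 ± 0.11% of the TPM. Nespas, the paternally expressed antisense RNA over Nesp, had 7.17 TPM and 8.88 TPM.

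For Grb10 and Mest, most of the TPM fell on models of the main starts whose sequences are given above. In mouse, the upstream Grb10 start is used from the maternal chromosome in most tissues and downstream starts from the paternal chromosome in neurons. Transcripts of the upstream group held 460 TPM in replicate 1 and 508 TPM in replicate 2, against 18.4 TPM and 13.5 TPM for the group from 12026324 to 12027971. Grb10-201 alone was 96.0 ± 0.78% of the gene. For Mest, the group at 30738050 held 1011 TPM and 995 TPM, and the group from 30731968 to 30733506 held 0.92 TPM and 0.77 TPM. Mest-211 was 95.7 ± 0.10% of the gene.

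Inpp5f and H13 are examples where imprinting affects part of the transcripts. For Inpp5f, internal starts are the ones known to be paternally expressed in brain. The internal group from 128687546 to 128688489 on chromosome 7 held 17.97 TPM in replicate 1 and 16.9 TPM in replicate 2, which was 68.4 ± 0.07% of the gene. The first starts held 7.49 TPM and 7.0 TPM. In counts not divided by length the internal share was 57.7%, still the larger part. For H13, transcripts that end before Mcts2 are known to come from the chromosome on which Mcts2 is active. The 2 such models held 19.3 TPM in each library, 17.96% of H13.

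Igf2 and H19 transcripts were divided among several models, and for Igf2 the order depended on the scale. Igf2-208, a short noncoding model at the 3′ end (958 bases), had 35.1 ± 0.39% of the TPM, and Igf2-203 (650 bases) had 35.1 ± 0.97%. Igf2-205 (4722 bases) had 12.0% of the TPM but 38.7% of the counts, the highest count share of any Igf2 model. Which Igf2 model leads therefore cannot be told from these tables. For H19, H19-202 had 44.3 ± 4.52% of the TPM, H19-205 31.4 ± 4.44% and H19-203 24.4 ± 0.08%. All 5 H19 models start within 1 group. In Nnat, Nnat-202 held 60.2% and Nnat-205 27.7%, and in Blcap, Blcap-202 held 83.1%. In Peg10, a 1477-base model without an entry in the later annotation held 42.1% of the TPM but 14.9% of the counts.

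Most genes that set or keep imprints were expressed. Of 18 genes listed for it, 15 reached 1 TPM in both libraries and 14 had a mean of 10 TPM or more. Zfp57, the zinc finger protein that reads methylated TGCCGC, had 140 TPM in replicate 1 and 124 TPM in replicate 2. Trim28, the corepressor it recruits, had 414 TPM and 398 TPM. Zfp445, a second zinc finger protein of the same kind, had 52.8 TPM and 51.5 TPM. Dnmt1 and Uhrf1, which copy methylation after replication, had means of 89.0 ± 2.44 TPM and 130.9 ± 1.27 TPM. The genes that act in the germ line or egg were near 0: Dnmt3l, the cofactor of methylation in germ cells, had 0.34 TPM and 0.16 TPM, Dppa3 had 0.29 TPM and 0.07 TPM, and Ctcfl had 0.04 TPM and 0.09 TPM. Ctcf, which binds the unmethylated control region between Igf2 and H19, had 124 TPM and 111.9 TPM. Dnmt3a exceeded its relative Dnmt3b, with 177 TPM and 184 TPM for Dnmt3a and 12.5 TPM and 12.4 TPM for Dnmt3b.

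Between the pools 1 imprinted gene passed the limit, and most of the others were slightly lower in replicate 2. The difference was taken as log2(TPM + 1) in replicate 2 minus that in replicate 1, over genes with a mean of 1 TPM or more. Of 36 such members, 1 differed by over 0.32 on this scale, where 11.1% of 15723 mouse genes did. That gene was Nnat, with 1575 TPM in replicate 2 and 2026 TPM in replicate 1, a difference of -0.36. In CPM it was -0.38, with a 95% exact interval of -0.40 to -0.36 that covers counting error only. Of the 36, 24 were lower in replicate 2, and the median difference was -0.07, against 0.0004 over all genes. With 1 library per pool the difference has no replicate check.

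The genes of the Dlk1-Meg3 locus had small differences, none past the limit. All 5 were below 0, where 49.6% of all genes with a mean of 1 TPM or more were, with differences of -0.13 for Dlk1, -0.17 for Rian, -0.23 for Mirg, -0.24 for Rtl1 and -0.29 for Meg3. Meg3 had 557 TPM in replicate 2 and 679 TPM in replicate 1, and in CPM the difference was -0.28 with a counting interval of -0.31 to -0.25. At another locus Ndn had -0.22, Mkrn3 -0.21 and Magel2 -0.09. Neuron markers were lower in the same library, 4 of 4, and their sum was 286 TPM in replicate 2 against 382 TPM in replicate 1. Tubb3, a neuronal tubulin, differed by -0.45, Nefl by -0.39, Stmn2 by -0.38 and Elavl3 by -0.35. Their part in the differences of Nnat and the other members was not tested. Of the 4 pituitary markers, Pitx1, a gene also expressed in the jaw and mouth, had 81.4 TPM in replicate 2 and 129 TPM in replicate 1. Pomc (-0.12) and Lhx3 (-0.77) were also lower, and Cga (0.89) was higher. Lens and retina markers ran the other way, with 348 TPM in replicate 2 and 148 TPM in replicate 1.

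Snrpn needs its neighbours to be read. It differed by -0.29, with 51.3 TPM in replicate 2 and 62.9 TPM in replicate 1. Snurf, encoded in the same transcripts, had 40.4 TPM in replicate 2 and 21.6 TPM in replicate 1. Snurf has an effective length of 117 bases and held 117 counts in replicate 2 and 44.1 counts in replicate 1. Summed with Gm38393, which overlaps them, the 3 genes had 92.1 TPM in replicate 2 and 85.7 TPM in replicate 1, a difference of 0.10. Their summed counts gave 62.0 CPM in replicate 2 and 75.4 CPM in replicate 1, a log2 difference of -0.28, close to the -0.31 of Snrpn alone in CPM. The sign of the sum thus depended on dividing by length, and that of the counts was the same with and without the neighbours. Among low members, Slc22a18 differed by 1.18 in CPM with a counting interval of 0.22 to 2.25, on 39 counts in replicate 2 and 12 in replicate 1.

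**Figure D4:**
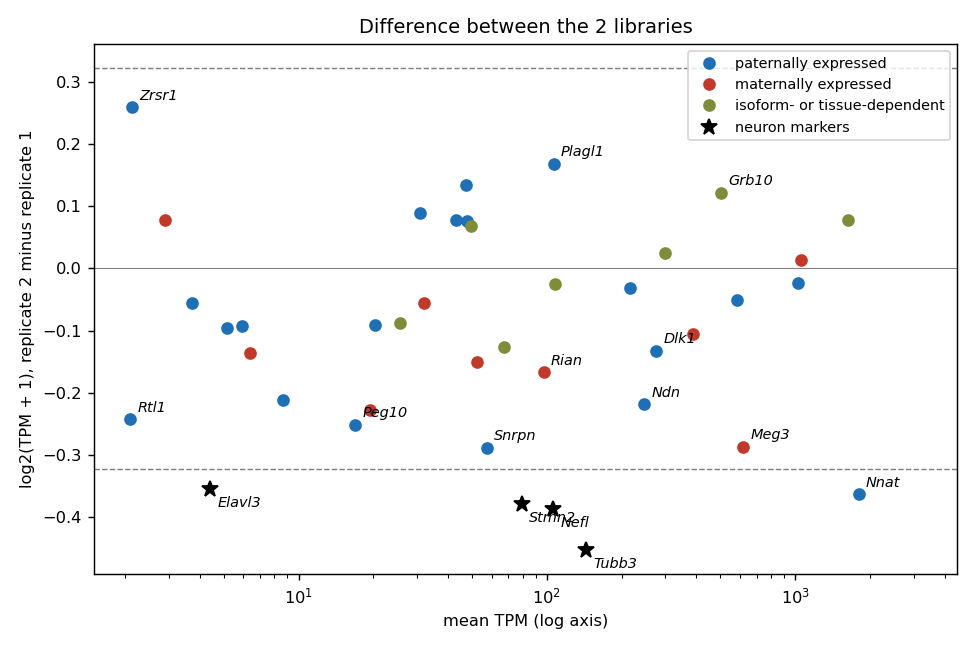
Log2(TPM + 1) in replicate 2 minus that in replicate 1 (vertical) against mean TPM (horizontal, log axis) for the 36 members with a mean of 1 TPM or more, coloured by known parental origin, with 4 neuron markers as stars; dashed lines mark differences of 0.32 either way. Nnat, at -0.36, is the only member past a line, and all 4 neuron markers lie below it.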

How the data were processed

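Per the deposited notes, reads were mapped to mm10 with GENCODE M4. The aligner is not given in the sources used here, and the columns are named as RSEM names them. The deposited expected counts are estimated reads per gene, with shared reads divided among genes. The deposited TPM and FPKM values are scaled by length and depth, with 96 ERCC spike-ins inside the TPM total, and a second deposited TPM column is a posterior mean. The deposited isoform percent column gives a transcript's share of its gene; shares here were recomputed from TPM. Deposited TPM interval bounds and lengths in bases were read as other values.

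Symbols, biotypes and coordinates came from GENCODE M21 (same build), 1-based, and sequences from RefSeq tables of GRCm38.p6. The members and lists were chosen with earlier results of these data known. All members were accounted for; values per library are given for members with a mean of 10 TPM or more and for every gene of a pair, and other genes only where listed or overlapping a member. Ratios were called past 1 on the log2 scale. Expected counts were rounded for TMM and RLE factors (edgeR 4.0.16, R 4.3.3); other steps used Python 3.11.15, pandas 2.3.3 and scipy 1.17.1. The count of differing genes was tested on simulated data for 43346 genes. All of 100 genes raised 2-fold and 100 lowered 2-fold were recovered, and 31 of 9342 unchanged genes at 10 TPM or more were counted. A 2-fold change lies well past the limit of 1.25-fold, so recovery was all but fixed in advance. The simulation checks the counting only. A count of 3, the limit that 0 allows, is 0.172 TPM in replicate 1 and 0.121 TPM in replicate 2 at 1000 bases. Replicates are separate pools, so spreads describe 2 pools; reads carry no molecular identifiers. Alternatives were other units, scalings, pseudocounts and single libraries.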

Additional observations from a re-analysis of the deposited data

How the results depend on the processing

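Of 100 values of the 20 ratios under 5 alternatives, 97 kept their direction and call. The other 3 came from counts not divided by length, where Airn over Igf2r (-4.04) became called, Sgce over Peg10 (0.10) lost its call and Ube3a over Snrpn (1.251) reversed; that alternative leaves out transcript length by construction. Rescaling TPM without the spike-ins raised the medians to 51.4 TPM over all members, 46.5 over paternally expressed, 34.3 over maternally expressed and 116 over isoform- or tissue-dependent members, and the posterior mean TPM put the last at 105. Members differing between the libraries numbered 3 with a pseudocount of 0.1 (Nnat, Rtl1, Zrsr1), 2 with no minimum level (Nnat, Slc22a18) and 0 at a fold limit of 1.5, against 1; the causes were not tested. The share of all genes at 1 TPM was 76.4% among genes with 3 or more counts and 61.8% among protein-coding genes. The start shares in counts and the sum over Snrpn, Snurf and Gm38393 were chosen after seeing the data. The 2 pools limit every comparison, and low members (Ascl2, Slc22a18, Usp29) rest on 9 to 42 counts per library.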
